A study of Homo sapiens with 8 samples.

Results

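ACAT2, HMGCS1, MVD, SQLE, MSMO1, STARD4 and INSIG1 are 7 genes of sterol supply, and their array signals were followed here in HepG2 (hepatocellular carcinoma) and LX2 (hepatic stellate cells), both established human lines. The genes were chosen by their measured response to CM272 in both lines, as targets of the transcription factor SREBP2 whose direction differed between the lines, and each had 1 probe set (7 genes of 14884 with a symbol on the array). The probe sets were 17014309 (ACAT2), 16995890 (HMGCS1), 16829139 (MVD), 17072552 (SQLE), 16972155 (MSMO1), 16998810 (STARD4) and 17053892 (INSIG1). The change with CM272 therefore describes the choice and is given for these genes with no test. The comparison of the vehicle-treated lines is another contrast but uses the same control arrays, and the choice favours low HepG2 and high LX2 control values, so its p-values are not independent of the choice. CM272 is a small molecule known to inhibit G9a, which methylates histones, and DNMT1, which methylates DNA. The 4 groups were HepG2 with CM272, HepG2 control, LX2 with CM272 and LX2 control, each with 2 arrays. Treated cells received 400 nM CM272 and control cells 0.1% DMSO, in each case for 48 h; the DMSO content of the CM272 wells is not stated. HepG2 was kept in 10% fetal bovine serum and LX2 in 2%, so that line and serum cannot be told apart. Each line stands for 1 established line in culture, and the labels do not state separate cultures for replicate arrays, so that the p-values measure the spread between these arrays, which may be technical.

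Cells make cholesterol from acetyl-CoA through mevalonate, farnesyl pyrophosphate, squalene and lanosterol. When sterols in the endoplasmic reticulum membrane run low, the escort protein SCAP carries SREBP2 to the Golgi, where proteases free its transcription factor fragment. That fragment raises the genes of synthesis and uptake. When sterols are plentiful, INSIG proteins hold SCAP and SREBP2 back. INSIG1 is itself a target of SREBP and so closes a feedback loop, and serum lipoproteins are one source of the sterol that this system senses.

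Signals are RMA log2 values, on which a difference of 1 is a 2-fold change, and n is 2 arrays in every group. Array medians ran from 4.19 to 4.54. Replicates correlated across genes at r = 0.978 to 0.993, with LX2 CM272 the least alike pair (genes are not independent replicates). All 14 named hepatocyte markers of a list of 18 were above log2 4 in HepG2 (summed level 158.2 to 159.0 with CM272 and 155.4 to 156.7 in control). In LX2 5 of the 14 passed that level with CM272 and 4 in control (sums of 52.8 to 54.2 and of 51.8 to 52.0). The 10 named stellate markers of 19 summed to 62.6 to 63.1 in HepG2, where 8 passed log2 4, and to 76.1 to 76.7 in LX2, where 9 did. The 5 named leukocyte markers of 10 summed to 32.7 to 33.5 in HepG2 CM272, 32.5 to 33.1 in HepG2 control, 27.4 to 27.9 in LX2 CM272 and 26.3 in LX2 control. The 7 named endothelial markers of 10 summed to 27.6 to 29.7, 28.2 to 28.6, 32.8 to 33.0 and 29.8 to 30.2 in the same groups. In LX2 limma called 1 of 4 tested leukocyte markers higher with CM272, CD14 (1.12, adjusted p = 0.0102). Of 5 tested endothelial markers it called 1 higher, FLT1 (1.55, adjusted p = 0.00484). Of 9 tested stellate markers it called 2 higher, DES (1.25) and CCN2 (0.64), and 1 lower, LOX (-1.01). The shares over all tested genes there were 3.79% called higher and 4.63% lower. The part of these shifts in the results was not tested.

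The vehicle-treated lines differed in every one of the 7 genes, which were all lower in HepG2 control than in LX2 control. The gap was widest for INSIG1 and smallest for MVD. Limma with Benjamini-Hochberg adjustment over 12239 genes called all 7 lower, a direction that the choice of the genes favours. INSIG1 is counted among them although it passed the brightness filter only through LX2. Over all tested genes 40.5% were called lower and 17.7% higher in this comparison, and the median difference was -0.27, against a median of -2.61 for the 7 genes. Both control arrays of HepG2 lay below both control arrays of LX2 for each gene. The share of all tested genes that did so was not computed, so the count is no result about these genes. A positive difference (HepG2 control minus LX2 control) was found in 34.9% of all tested genes. On the CM272 arrays, where the choice favours the opposite direction, the mean was also lower in HepG2 for each gene. The difference was -0.12 for SQLE, -0.30 for MVD, -0.44 for ACAT2, -1.62 for STARD4, -1.72 for MSMO1 and -1.95 for HMGCS1, with INSIG1 under the filter in HepG2. In SQLE and MVD the CM272 arrays of the lines overlapped. The share of all tested genes lower in HepG2 on the CM272 arrays was not computed, so this count too is no result about these genes.

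The gaps of the enzymes that act before squalene ranged widely. Their p-values come from control arrays that the choice also used, so they are not independent of it. ACAT2, the cytosolic thiolase that joins acetyl-CoA units into acetoacetyl-CoA, averaged 8.38 ± 0.36 in HepG2 control and 10.08 ± 0.05 in LX2 control (SD, n = 2 each), a difference of -1.70 (SE 0.23, limma adjusted p = 1.46e-04). HMGCS1, the synthase that makes HMG-CoA, averaged 7.11 ± 0.04 in HepG2 control and 10.33 ± 0.01 in LX2 control, 9.37-fold lower in HepG2 (difference -3.23, SE 0.16, limma adjusted p = 1.35e-07). MVD, which decarboxylates mevalonate pyrophosphate, averaged 6.77 ± 0.17 in HepG2 control and 7.66 ± 0.15 in LX2 control. Its difference of -0.89 (SE 0.23, limma adjusted p = 0.00806) was the one that lost its call, with quantile normalization over the 8 arrays (-0.61, adjusted p = 0.0596), without HepG2 control replicate 1 (-0.77, adjusted p = 0.0573) and without LX2 control replicate 1 (-0.79, adjusted p = 0.0625). MVD is thus the gene in which the separation of the vehicle-treated lines is least firm.

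Beyond squalene the same order of the lines held, and the p-values carry the same dependence on the choice. SQLE, squalene epoxidase, averaged 7.87 ± 0.01 in HepG2 control and 9.75 ± 0.11 in LX2 control, a 3.68-fold lower level in HepG2 (limma adjusted p = 4.79e-06). MSMO1, the methylsterol monooxygenase that starts removal of methyl groups from lanosterol derivatives, averaged 8.25 ± 0.02 in HepG2 control and 11.14 ± 0.02 in LX2 control, 7.41-fold lower in HepG2 (limma adjusted p = 1.25e-07). STARD4, which carries cholesterol between membranes, averaged 7.16 ± 0.08 in HepG2 control and 9.77 ± 0.09 in LX2 control, a 6.10-fold lower level (limma adjusted p = 8.38e-07).

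INSIG1, the regulator, was bright in LX2 and dim in HepG2. On the HepG2 arrays it read 3.17 and 3.28 with CM272 and 3.12 and 3.02 in control, all under the brightness filter of log2 4, and 23.9% to 28.3% of all probe sets on those arrays were dimmer. In LX2 it read 9.45 and 9.42 with CM272 and 10.28 and 10.21 in control. With HepG2 set at the filter level, INSIG1 was at least 75.8-fold lower in HepG2 control than in LX2 control. INSIG2, the other INSIG protein, read 7.91 ± 0.14 in HepG2 CM272 and 7.80 ± 0.00 in HepG2 control, against 6.85 ± 0.51 in LX2 CM272 and 7.37 ± 0.05 in LX2 control (HepG2 control minus LX2 control 0.43, SE 0.22, limma adjusted p = 0.112).

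**Figure D1:**
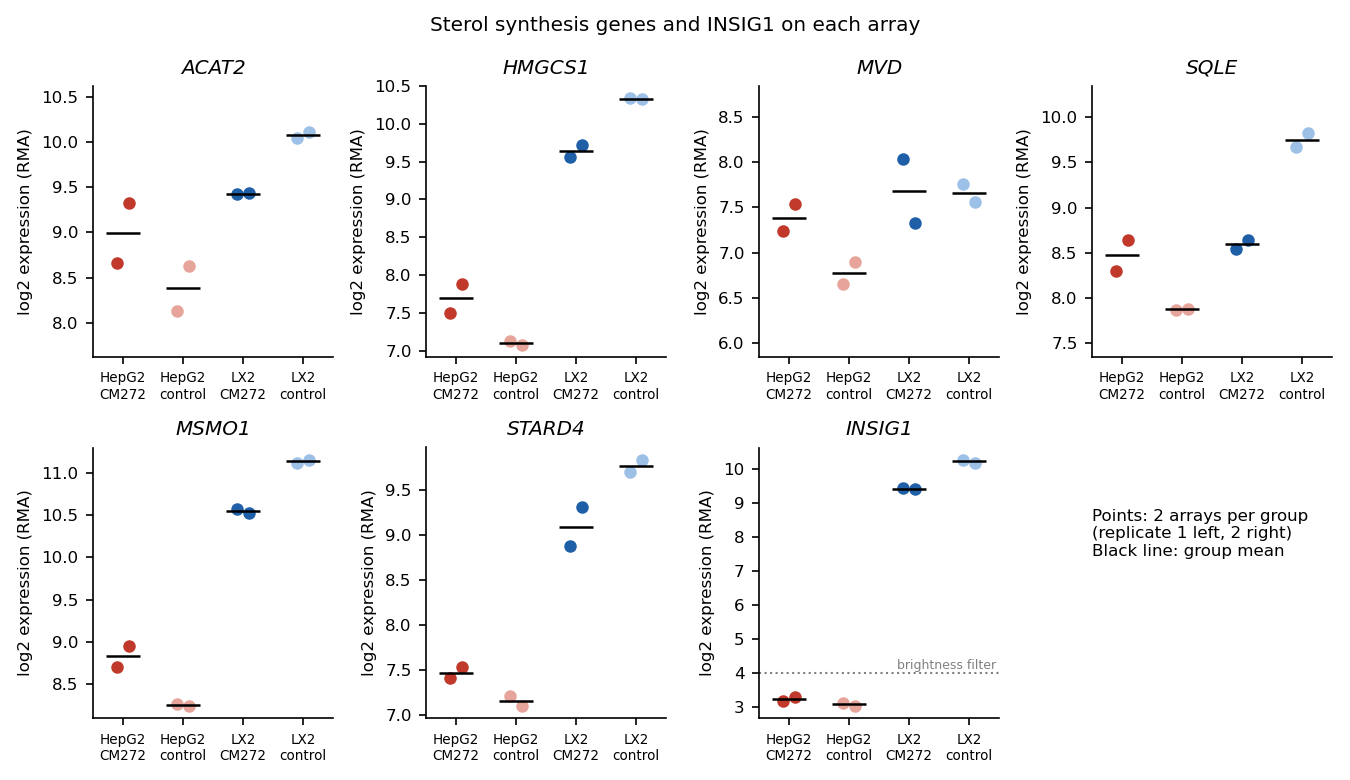
Log2 expression of the 7 genes on each of the 8 arrays, 1 panel per gene, with HepG2 CM272, HepG2 control, LX2 CM272 and LX2 control from left to right and the group mean as a black line. HepG2 control is the lowest group in every panel, and INSIG1 in HepG2 stays near 3 while it is above 9 in LX2.

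The sequence before the annotated start is shown for 4 of the genes, since they lie at the ends of the patterns: INSIG1 with the widest gap between the lines, MVD with the smallest, and HMGCS1 and MSMO1, which tracked the mean of the other genes most closely. RefSeq windows (GRCh38.p14) of 250 bases before the start were present for 5 of the 7 genes: HMGCS1 (2 starts), MSMO1, MVD, INSIG1 and STARD4. SREBP is a weak activator that works together with the factors NF-Y and Sp1. Letters searched on both strands were CCAAT for NF-Y, GGGCGG for Sp1, TCACNCCAC for the core of a sterol regulatory element and CACGTG for an E-box. Capitals mark the NF-Y and Sp1 letters. On the opposite strand the NF-Y letters read as ATTGG. The Sp1 letters there read as CCGCCC, and matches may overlap, as 2 of the Sp1 matches do in INSIG1.
INSIG1, chr7:155297628-155297877, plus strand: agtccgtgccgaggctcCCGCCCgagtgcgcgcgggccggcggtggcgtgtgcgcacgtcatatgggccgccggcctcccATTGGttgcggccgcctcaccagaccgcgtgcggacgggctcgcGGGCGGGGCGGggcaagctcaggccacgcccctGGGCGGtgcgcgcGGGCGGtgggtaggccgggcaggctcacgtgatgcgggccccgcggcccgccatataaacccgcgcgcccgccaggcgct
HMGCS1, chr5:43313413-43313662, minus strand: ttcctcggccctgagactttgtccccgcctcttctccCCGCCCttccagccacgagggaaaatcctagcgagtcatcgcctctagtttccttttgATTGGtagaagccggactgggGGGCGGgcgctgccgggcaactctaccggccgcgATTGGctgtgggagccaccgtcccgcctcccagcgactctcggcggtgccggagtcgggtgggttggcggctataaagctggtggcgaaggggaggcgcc
MSMO1, chr4:165327419-165327668, plus strand: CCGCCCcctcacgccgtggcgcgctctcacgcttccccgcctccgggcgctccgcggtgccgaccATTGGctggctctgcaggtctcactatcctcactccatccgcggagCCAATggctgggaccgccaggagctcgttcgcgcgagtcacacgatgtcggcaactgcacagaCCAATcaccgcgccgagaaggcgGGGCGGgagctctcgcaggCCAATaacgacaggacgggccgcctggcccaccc
MVD, chr16:88663092-88663341, minus strand: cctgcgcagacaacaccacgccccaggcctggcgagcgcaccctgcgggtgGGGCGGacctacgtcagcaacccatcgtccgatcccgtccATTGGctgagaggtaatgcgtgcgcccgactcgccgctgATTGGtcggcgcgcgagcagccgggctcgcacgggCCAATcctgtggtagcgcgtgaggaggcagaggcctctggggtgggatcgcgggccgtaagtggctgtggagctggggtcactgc

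All 5 genes had CCAAT and GGGCGG in a window, where 32.0% of 35116 RefSeq windows of the same length held CCAAT, 42.6% held GGGCGG and 13.1% held both. MSMO1 had 4 CCAAT matches, MVD 3, the first HMGCS1 window 2, STARD4 2 and INSIG1 1. The second HMGCS1 window had 2 GGGCGG and 0 CCAAT. INSIG1 had 5 GGGCGG matches and the only CACGTG, which begins 55 bases before the start (6.34% of all windows hold CACGTG). TCACNCCAC was in 0 of the 5 genes and in 0.883% of all windows, and other spellings of the element were not searched. The windows were rich in G and C, with 66.0% in the first HMGCS1 window, 69.6% in MVD, 70.0% in MSMO1 and 78.4% in INSIG1, against a median of 58.0% over all windows. They held 23, 27, 30 and 41 CG dinucleotides, in the same order, against a median of 11. MVD, which alone among the 4 overlapped between CM272 and control in LX2, shared the CCAAT and GGGCGG letters with the rest.

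With CM272 the 7 genes lay above control in HepG2 and, MVD apart, below control in LX2, which is what they were chosen for. In HepG2 all 7 read higher on both CM272 arrays than on both control arrays, INSIG1 among signals under the filter, and the median change was 0.58. In LX2 6 of 7 were lower on both CM272 arrays than on both control arrays and the median change was -0.68. Over all tested genes 20.7% lay wholly above in HepG2, 28.6% wholly below in LX2, and 5.2% both. The 7 genes include 6 that did both, or 5 with INSIG1 set aside, and the choice fixed these counts. The median over all tested genes was -0.02 in each line.

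SQLE had the largest difference of the 7 in LX2. It read 8.54 and 8.64 in LX2 CM272, against 9.67 and 9.83 in LX2 control, a change of -1.16 (SE 0.15), or 2.23-fold lower. In HepG2 it read 8.30 and 8.64 with CM272, against 7.87 and 7.88 in control, a change of 0.60 (SE 0.15), or 1.51-fold higher. The distance between the lines was -0.12 (HepG2 minus LX2) on the CM272 arrays, against -1.88 on the control arrays, and the CM272 arrays of the lines overlapped.

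HMGCS1 and MSMO1 followed a common course. HMGCS1 read 7.50 and 7.88 in HepG2 CM272, against 7.13 and 7.08 in HepG2 control, and 9.56 and 9.71 in LX2 CM272, against 10.34 and 10.33 in LX2 control. Its changes were 0.58 in HepG2 and -0.69 in LX2 (SE 0.16 each). MSMO1 read 8.71 and 8.96 in HepG2 CM272, against 8.26 and 8.24 in HepG2 control, and 10.58 and 10.52 in LX2 CM272, against 11.12 and 11.16 in LX2 control. These are changes of 0.58 and -0.59 (SE 0.14 each), and in both genes the lines stayed apart under CM272.

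ACAT2 and MVD, from the early part of the pathway, had wider replicate spread. ACAT2 read 8.66 and 9.32 in HepG2 CM272, against 8.13 and 8.63 in HepG2 control, so that CM272 replicate 1 was just above control replicate 2. Its change in HepG2 was 0.61 (SE 0.23), 0.94 without HepG2 CM272 replicate 1 and 0.28 without replicate 2. In LX2 it was tighter, at 9.42 and 9.44 with CM272 against 10.05 and 10.12 in control (change -0.65, SE 0.23).

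MVD did not share the direction in LX2. It read 8.04 and 7.32 in LX2 CM272, against 7.76 and 7.56 in LX2 control, so that the control arrays lay between the CM272 arrays. The change was 0.02 (SE 0.23), at -0.34 with the first LX2 CM272 array left out and 0.38 with the second left out. In HepG2 MVD read 7.23 and 7.53 with CM272, against 6.65 and 6.89 in control (change 0.61, SE 0.23), without overlap.

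STARD4 and INSIG1 differed in LX2 by amounts close to those of the enzymes and by less in HepG2. STARD4 read 8.88 and 9.31 in LX2 CM272, against 9.70 and 9.84 in LX2 control (change -0.68, SE 0.17). In HepG2 it read 7.41 and 7.53 with CM272, against 7.22 and 7.10 in control (change 0.31, SE 0.17). INSIG1 differed by -0.81 in LX2 (SE 0.13, 1.76-fold lower), whereas its change of 0.15 in HepG2 (SE 0.13) was between signals under the brightness filter and carries no direction. STARD4-AS1, a non-coding gene that overlaps STARD4 on the annotation, read 5.57 ± 0.21 in HepG2 CM272 and 5.12 ± 0.15 in HepG2 control, and 5.63 ± 0.45 in LX2 CM272 and 5.60 ± 0.00 in LX2 control, with no call in either line (limma adjusted p = 0.458 and 0.944).

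**Figure D2:**
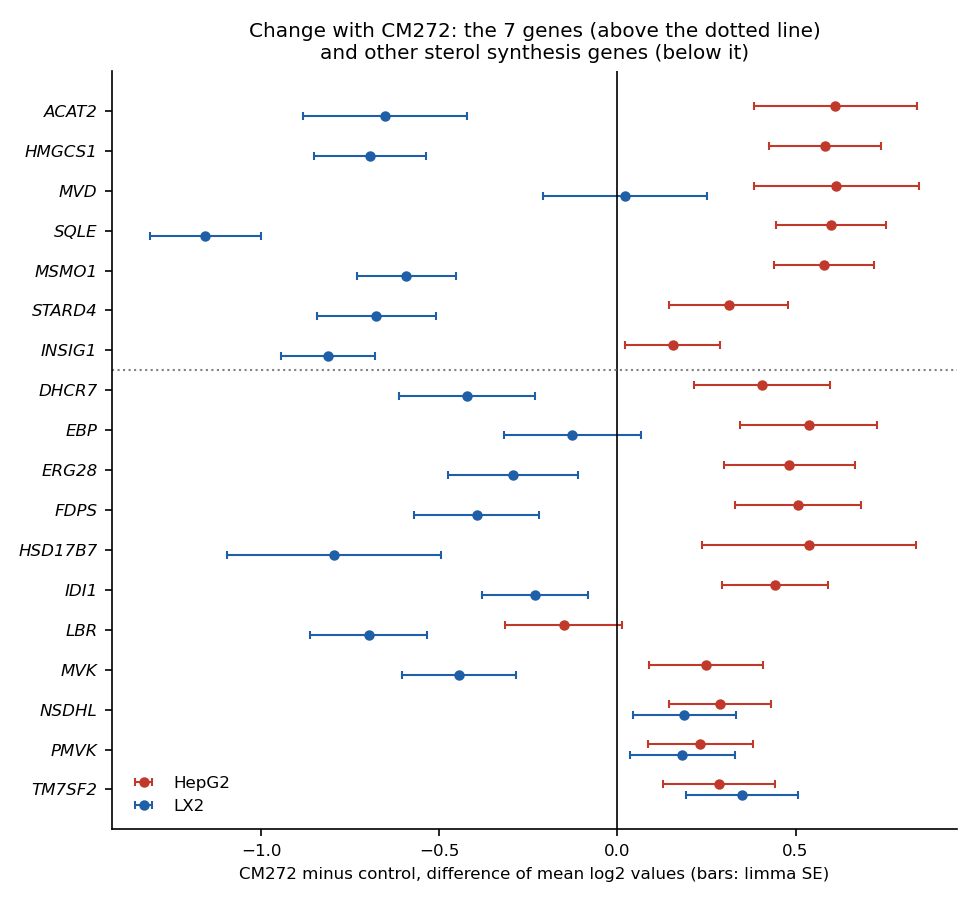
Change with CM272 (difference of mean log2 values, CM272 minus control, with the limma SE as bars) in HepG2 (red) and LX2 (blue) for the 7 genes above the dotted line and 11 other tested sterol synthesis genes below it. MVD is at 0.02 in LX2, and NSDHL, PMVK and TM7SF2 lie above 0 in both lines.

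The difference between the changes (HepG2 minus LX2), on which the genes were chosen, was 1.76 for SQLE, 1.28 for HMGCS1, 1.26 for ACAT2, 1.17 for MSMO1, 0.99 for STARD4 and 0.59 for MVD. For INSIG1 it was 0.97 and rests on LX2, since the HepG2 signals lie under the filter.

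**Figure D3:**
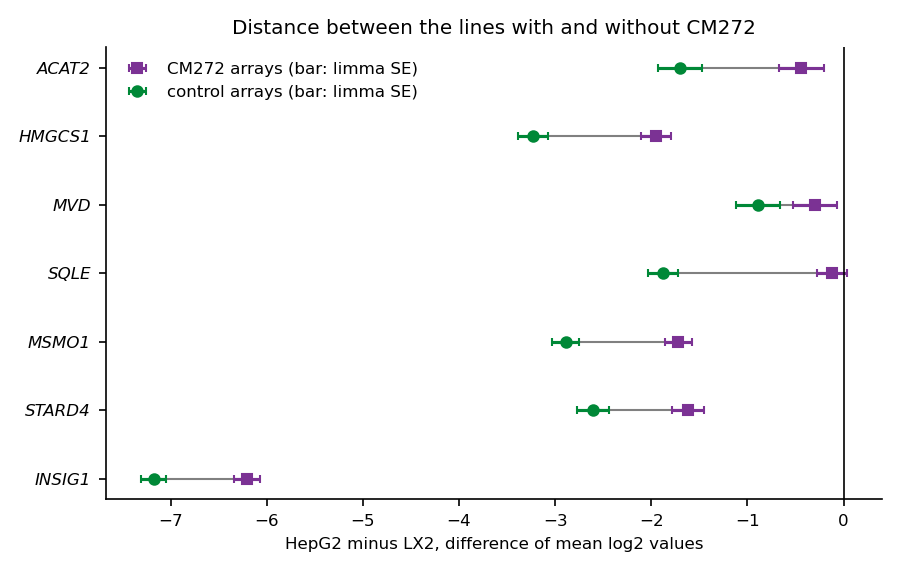
Difference between the lines (HepG2 minus LX2, mean log2 values, limma SE as bars) on CM272 arrays (purple squares) and control arrays (green circles) for the 7 genes. Every square is nearer to 0 than its circle (-0.12 against -1.88 for SQLE), which restates the difference the genes were chosen on, and the INSIG1 points rest on HepG2 signals under log2 4.

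Array by array, the 7 genes kept close company except for MVD. With each line's own mean removed, the correlation of a gene with the mean of the other 6 over the 8 arrays was 0.98 for HMGCS1 and MSMO1, 0.96 for SQLE, 0.90 for ACAT2, 0.84 for STARD4, 0.83 for INSIG1 and 0.36 for MVD (a description, since the arrays of a group share treatment and the genes were chosen for it). In HepG2 CM272 all 7 genes were higher in replicate 2 than in replicate 1, by up to 0.66 for ACAT2, where 53.0% of all tested genes were. The mean of the 7 genes in that group was 0.09 above the line's mean in replicate 1 and 0.40 in replicate 2, against -0.28 and -0.21 in the control arrays. In LX2 the means were -0.32 and -0.33 with CM272 and 0.32 and 0.33 in control. Single genes did not lie closer there: MVD differed by 0.72 between the LX2 CM272 arrays, and the median difference over genes was 0.26 in that pair, against 0.16 in the HepG2 CM272 pair. The median change in HepG2 was 0.76 without HepG2 CM272 replicate 1 and 0.39 without replicate 2. In LX2 the median was -0.62 and -0.77 when the first and the second CM272 array was left out.

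**Figure D4:**
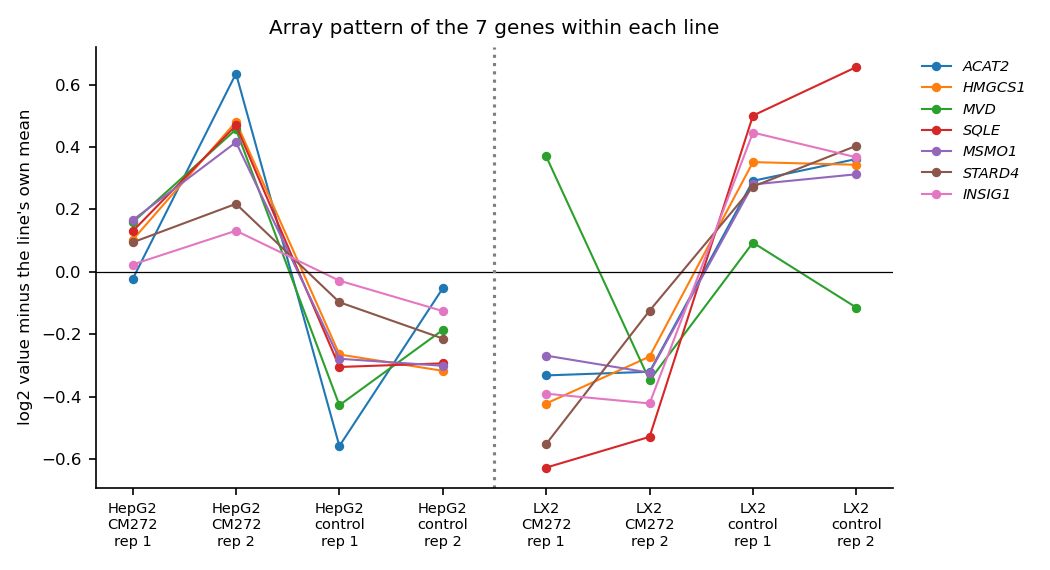
Log2 values of the 7 genes minus each line's own mean, array by array, with HepG2 left of the dotted line and LX2 right of it, and CM272 arrays left of control arrays within each line. In HepG2 the second CM272 array is the highest for all 7 genes, and in LX2 MVD alone has a CM272 array above 0 (0.37).

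The rest of the sterol machinery was tested in the same fit, although the choice of the 7 had already taken strongly responding genes out of it. Of 49 other genes of sterol synthesis, SREBP control and cholesterol uptake and transport, 30 had a symbol in the annotation and 29 were bright enough to test, and those without a symbol were not analysed here. In LX2 limma called 3 lower and 1 higher of the 29 (unadjusted p under 0.05 in 10 lower and 2 higher), with a median change of -0.23. Over all 12239 tested genes 4.63% were called lower and 3.79% higher there, and 1816 lower and 1282 higher had an unadjusted p under 0.05. In HepG2 limma called 0 in either direction (an unadjusted p under 0.05 was reached by 5 higher and 1 lower), with a median of 0.15. Of all tested genes 0% were called higher there and 0.00817%, 1 gene, lower, while 583 higher and 820 lower had an unadjusted p under 0.05. For the difference between the changes (HepG2 minus LX2) limma called 1 higher and 0 lower (12 and 2 at an unadjusted p under 0.05). The median was 0.19, against 0.01 over all tested genes, of which 0.36% were called higher and 0.825% lower. An unadjusted p under 0.05 was reached by 1083 positive and 1070 negative differences among all 12239 tested genes.

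Among the 11 other synthesis enzymes and factors, 10 had a positive change in HepG2 and 8 a negative one in LX2, with medians of 0.41 and -0.29. Over all tested genes 46.4% had a positive change in HepG2 and 47.5% in LX2. LBR, which has sterol reductase activity and anchors chromatin at the nuclear envelope, was the one that passed: it fell in LX2 by 0.70 (SE 0.16, limma adjusted p = 0.0332), and it read 7.89 ± 0.01 in HepG2 CM272 and 8.04 ± 0.20 in HepG2 control. That call was lost without any 1 array other than LX2 CM272 replicate 2 (change of -0.52 without LX2 CM272 replicate 1). Of the 11 enzymes and factors, 7 had a positive change in HepG2 and a negative one in LX2, none of them passing. Of all 12239 tested genes 2703 had these signs. HSD17B7, a sterol ketone reductase, differed from control by 0.54 in HepG2 and -0.79 in LX2 (SE 0.30 each), with an SD of 0.79 in LX2 CM272. FDPS, farnesyl pyrophosphate synthase, differed by 0.51 and -0.40, and IDI1, the isopentenyl isomerase, by 0.44 and -0.23. DHCR7, which makes cholesterol in the last step, differed by 0.41 and -0.42. MVK, mevalonate kinase, and ERG28, a scaffold of the demethylation complex, read likewise, at 0.25 and -0.45 and at 0.48 and -0.29. PMVK, TM7SF2 and NSDHL did not, with values between 0.18 and 0.35 in both lines. In the vehicle-treated lines 8 of these 11 were called lower in HepG2 and 0 higher, with a median of -1.03, where 40.5% of all tested genes were called lower and 17.7% higher.

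The genes that control SREBP had no call with CM272 in either line (0 of 10 in limma, while an unadjusted p under 0.05 was reached by 1 lower gene in HepG2 and 3 in LX2). At that unadjusted threshold 820 of all 12239 tested genes were lower in HepG2 and 1816 in LX2. SREBF2, which encodes SREBP2, read 7.22 ± 0.09 in HepG2 CM272 and 7.31 ± 0.01 in HepG2 control, and 8.27 ± 0.08 in LX2 CM272 and 8.22 ± 0.03 in LX2 control. Its differences from control were -0.09 in HepG2 and 0.05 in LX2 (SE 0.13 each). In the vehicle-treated lines it was lower in HepG2 by 0.91 on the log2 scale (SE 0.13, limma adjusted p = 2.47e-04). SREBF1, which encodes the SREBP1 forms, differed from control by -0.33 in HepG2 and -0.22 in LX2 (SE 0.17 each), SCAP by -0.12 in both, and INSIG2 by 0.11 in HepG2 and -0.52 in LX2 (SE 0.22 each, limma adjusted p = 0.896 and 0.168).

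In uptake and transport, 2 of 8 genes fell and 1 rose in LX2, against 4.63% called lower and 3.79% higher over all tested genes. GRAMD1C, of a family that moves cholesterol from the plasma membrane to the endoplasmic reticulum, fell to 4.68 ± 0.01 in LX2 CM272, against 5.87 ± 0.01 in LX2 control (change -1.19, SE 0.14, limma adjusted p = 0.00258). It was under the filter in HepG2, at 3.01 ± 0.02 with CM272 and 2.96 ± 0.16 in control, so that a change there could not be measured. It was the 1 gene of the 29 called for the difference between the changes, at 1.23, which rests on LX2 alone. That call was lost without any 1 array other than those of LX2 CM272 (limma adjusted p of 0.0682 to 0.140). GRAMD1B, of the same family, fell by 0.67 in LX2 (SE 0.18, limma adjusted p = 0.0473). Its call held without LX2 CM272 replicate 2 alone among the arrays, and the change was -0.44 without LX2 control replicate 1. MYLIP, a ubiquitin ligase and a target of the oxysterol sensor LXR, rose by 0.96 in LX2 (SE 0.15, limma adjusted p = 0.00806) and read 5.69 ± 0.13 in HepG2 CM272 and 5.77 ± 0.02 in HepG2 control. Its call was lost without LX2 control replicate 1 (1.01, adjusted p = 0.0709) or 2 (0.91, adjusted p = 0.102). TMEM97, an endoplasmic reticulum protein that binds the cholesterol transporter NPC1, changed by 0.39 in HepG2 and -0.48 in LX2, without passing.

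The genes with array patterns closest to the 7 lay outside the sterol lists. Among 2604 tested genes whose changes in the lines differed by at least 0.5, the 10 with the highest correlation with the mean pattern over the 8 arrays (each line's mean removed) were HOXB4, CLMP, ZFP28, ZC3H12B, NFS1, SCLT1, TAB3, PRPSAP1, CCDC150 and HOXA2, at r = 0.993 to 0.968. In all, 112 genes exceeded r = 0.9. HOXB4, a homeobox transcription factor, differed from control by 0.82 in HepG2 and -0.93 in LX2 (SE 0.18 each). Its HepG2 control mean of 3.34 was under the filter and its HepG2 CM272 mean was 4.16 ± 0.38, so that the HepG2 change has little weight. NFS1, the cysteine desulfurase of iron-sulfur cluster assembly, differed by 0.56 in HepG2 and -1.04 in LX2 (SE 0.15 each). With 8 arrays in 4 groups such a correlation says little more than that a gene was higher with CM272 in HepG2 and lower with it in LX2.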

How the data were processed

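Total RNA of HepG2 and LX2 was hybridised to Affymetrix whole-transcript arrays, 8 in all, as the labels' protocols describe. The authors deposited log2 values made with RMA, per the submitters' processing notes; the RMA version, the array's genome build and the scan batches are not given in the sources used here. RMA commonly includes quantile normalization, which hides a change shared by most genes, but the deposited arrays were not on 1 distribution (medians of 4.19 to 4.54). Of 48416 probe sets, 16098 (33.2%) had 1 symbol in the platform annotation, 0 had several and 32318 had none; the probe set with the highest mean stood for each of 14884 symbols. Columns of samples outside the series numbered 0. The 12239 genes for which some group had every array above log2 4 were fitted with limma 3.58.1 in R 4.3.3 (lmFit and eBayes, 4 group means, residual df 4, prior df 5.47), with Benjamini-Hochberg adjustment over all of them and a threshold of 0.05. The fit was tested on simulated data. Groups of 2 arrays allow no exact permutation p under 0.333. An SE is that of limma's moderated fit.

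The 7 genes, the gene lists and the rule for named genes were chosen with earlier results of these data known. The rule named the 7 genes, called genes of the sterol lists, the SREBP genes, up to 3 called genes of each neighbouring list per line, and the 10 genes most like the mean profile (Pearson r over 8 arrays); enzymes and TMEM97 that were not called were added after their values were seen. List genes without a symbol in the annotation were not analysed here. Alternatives were the filter, quantile normalization, array weights, a variance prior following the mean level, the mean of a gene's probe sets, each line alone, a replicate block and leaving out each array. Sequences are from RefSeq (GRCh38.p14), read with Python 3.11.15 and pandas 2.3.3; figures were drawn with matplotlib 3.10.9.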

Additional observations from a re-analysis of the deposited data

Results flagged for a closer look

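For 6 of the 7 genes both CM272 arrays lay above both control arrays in HepG2 and below both in LX2. This held for 5.2% of all tested genes, and the choice of the 7 fixed the count of 6. The difference between the changes (HepG2 minus LX2) was 1.76 for SQLE, 1.28 for HMGCS1, 1.26 for ACAT2, 1.17 for MSMO1, 0.99 for STARD4 and 0.97 for INSIG1, on the log2 scale. No test of these differences is given, since the opposed direction is what chose the genes, and INSIG1 lay under the brightness filter in HepG2. GRAMD1C, which was not among the 7, had a difference of 1.23, which passed limma's threshold but rests on LX2 alone, since the gene lay under the filter in HepG2 and a change there could not be measured. Groups of 2 arrays are too small for a check of single outlying arrays.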

How the results depend on the processing

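No value changed direction past its threshold under any alternative. The median change of the 7 genes in LX2, -0.68, was -0.60 with quantile normalization over 8 arrays, -0.58 with quantile normalization within each line, and -0.77 to -0.62 when each array was left out. In the vehicle-treated lines 7 genes were called lower in HepG2, and 6 were with quantile normalization over 8 arrays, without HepG2 control replicate 1 and without LX2 control replicate 1, MVD being lost each time (6 to 7 over all arrays left out). That quantile normalization also moved the median of all genes in this comparison to -0.01, against -0.27 as deposited. The choice of the 7 genes favours calls lower in HepG2. Of the other sterol genes, 3 were called lower in LX2, and 1 was with array weights, with each line fitted alone and with the filter at log2 6, and 1 to 5 when each array was left out. For genes higher in LX2 the count was 1, and 0 to 1 when each array was left out. For the difference between the changes (HepG2 minus LX2), 1 was called higher, 0 with the filter at log2 6, and 0 to 3 when each array was left out; 0 were called lower, 1 with the filter at log2 6, 1 with the variance prior following the mean level, and 0 to 1 when each array was left out. With the filter at log2 6 GRAMD1C and GRAMD1B were too dim to be tested. The causes of the other shifts were not tested. With a replicate block the basal count was 7, the other sterol genes lower in LX2 numbered 2 and the medians were 0.58 and -0.68; same-numbered arrays deviated together only weakly (r = 0.069 in HepG2 and 0.077 in LX2), so that the numbers do not establish pairs. Each line fitted alone gives no value for comparisons between lines. The number of arrays, 2 per group, limits precision, and signals under log2 4 have little weight.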

Other observations

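Fatty acid genes, many of them targets of the SREBP1 forms, were tested beside the sterol genes. Of 14 tested, limma called 4 lower in LX2 and 0 in HepG2 (at an unadjusted p under 0.05, 7 lower in LX2 and 2 higher in HepG2), with medians of 0.15 in HepG2 and -0.36 in LX2. Over all tested genes 4.63% were called lower and 3.79% higher in LX2, and 0.00817% lower and 0% higher in HepG2. At an unadjusted p under 0.05, 1816 of all 12239 tested genes were lower in LX2 and 583 higher in HepG2. SCD, the stearoyl-CoA desaturase, fell to 10.45 ± 0.10 in LX2 CM272, against 11.33 ± 0.06 in LX2 control (SD, n = 2 each; limma adjusted p = 0.0117), and read 10.99 ± 0.14 in HepG2 CM272 and 10.68 ± 0.18 in HepG2 control. ACSS2, which makes acetyl-CoA from acetate, fell by 0.68 in LX2 (limma adjusted p = 0.0380) and was higher by 0.57 in HepG2 without passing. ACSL4, which activates polyunsaturated fatty acids, fell by 0.99 in LX2 (limma adjusted p = 0.0185), and its change in HepG2 was -0.27. The LX2 calls of SCD and ACSL4 were lost with each line fitted alone (limma adjusted p = 0.0524 and 0.0740), without LX2 control replicate 1 (0.0948 and 0.118) and without replicate 2 (0.127 and 0.151). The ACSS2 call in LX2 was lost with array weights, each line alone, no filter on dim genes, and without either HepG2 CM272 array or any 1 LX2 array (limma adjusted p of 0.0542 to 0.209). The difference between the changes (HepG2 minus LX2) passed for SCD (1.19, SE 0.21, limma adjusted p = 0.0367) and ACSS2 (1.25, SE 0.23, limma adjusted p = 0.0416). Of the 14 genes 2 were thus called higher and 0 lower, against 0.36% higher and 0.825% lower over all tested genes. Both calls for the difference were lost without any 1 array of HepG2 or LX2 control, with array weights and with no filter on dim genes, with adjusted p of 0.0531 to 0.195 for SCD and 0.0635 to 0.183 for ACSS2. The ACSS2 call was also lost with the replicate block (adjusted p = 0.0562). The lists of the isoprenoid branch (2 tested), sterol efflux (2) and sterol esters, oxysterols and bile acids (3) had 0 genes called with CM272 in limma, and 1 or fewer of each at an unadjusted p under 0.05 in either direction in a line.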
